A study of Mus musculus with 16 samples.

Results

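Splenic NKT cells were compared with splenic CD4 T cells of the same mouse strain across all genes of an Affymetrix array. The comparison used 6 of the series' 16 arrays, and each array was put in its group by its sample title. NKT cells (n = 3) were sorted from spleens of wild-type C57BL/6 mice as CD3+CD4+NK1.1+, and the comparison group (CD4T, n = 3) as CD3+CD4+NK1.1- from the same source. About 100000 cells were sorted for each sample, and targets were made from about 2 µg of amplified RNA. The series calls its samples biological replicates and does not say whether each came from its own animal or sort. The p-values therefore rest on a spread between samples, pooled over all 6 groups of the series, which need not be a spread between animals. The NK1.1+ gate takes CD4+ T cells by a surface marker and not by binding of a lipid antigen, so NKT cells without NK1.1 or without CD4 are not in it, and conventional T cells that carry NK1.1 could be. The ages and sexes of the mice are not stated in the labels. In sorted bulk samples a change in the share of cells that express a gene and a change in its RNA per cell cannot be told apart.

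NKT cells carry an αβ T cell receptor of restricted diversity that recognises lipids presented by CD1d, a relative of MHC class I. They are selected in the thymus by strong receptor signals, take up the transcription factor PLZF (Zbtb16) during development and leave with a memory-like state, so that they release cytokines such as interleukin 4 and interferon gamma soon after stimulation. Most CD4 T cells of an unimmunised spleen are naive: they circulate through lymph nodes under the guidance of CCR7 and are held quiescent by factors such as KLF2. The question put to the arrays was which transcripts separate the innate-like from the conventional CD4+ population, beyond the receptors and cytokines by which NKT cells are known.

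The genes of the sort gates and the markers come before the results, to check the labels, and are no findings; Zbtb16, Klrd1 and Ccr7 also belong to gene lists described further on and are counted there. Klrd1, which encodes the NK receptor chain CD94, read 134, 86.6 and 89.6 on the CD4T arrays and 930.1, 518 and 579.7 on the NKT arrays in units of the deposited intensity. Il4 read 32.9, 23.04 and 24.4 on the CD4T arrays and 656, 299 and 276 on the NKT arrays on 1 of its 4 probe sets, and the others lay at 0.81, which was also called, 0.41 and 0.15. Zbtb16 read 19.6, 16.7 and 16.2 on the CD4T arrays and 266, 119 and 138 on the NKT arrays on 1 of its 2 probe sets, and the other lay at 0.00 ± 0.15. Ccr7 read 88.1, 105 and 140.1 on the CD4T arrays and 31.3, 25.5 and 21.0 on the NKT arrays. For these 4 markers no NKT array fell within the range of the CD4T arrays, and the directions were those the label calls for. The gene of NK1.1, the marker by which the gates differ, is not reported here. Cd3e lay at -0.03 ± 0.22 on the log2 scale, the brighter Cd3d probe set at 0.31 ± 0.28 and Cd3g at 0.07 ± 0.43, with overlapping arrays for all 3. Cd4, which both gates share, read 197, 278 and 355 on the CD4T arrays and 155, 182 and 183 on the NKT arrays, so every NKT array was below every CD4T array. The difference of -0.64 ± 0.17 had an adjusted p of 0.11, and of 0.0095 with the replicate number as a block.

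All differences are NKT minus CD4T on the log2 scale of the deposited intensity, 3 arrays against 3, with the standard error of the fit, which pools the spread over all 6 groups of the series, and a probe set was called where limma's p-value, adjusted by Benjamini-Hochberg over 12422 probe sets, was under 0.05. Of these 12422 probe sets 202 were called (1.63%), 135 higher in NKT cells (1.09%) and 67 lower (0.539%). They stand for 112 genes that rose and 54 that fell, counting probe sets with 1 gene symbol. Large differences were more frequent on the upper side: 90 of the called increases and 44 of the called decreases exceeded 1, and 39 and 12 exceeded 2. The median over all probe sets was -0.03 and the median size of a difference was 0.11. On 1517 probe sets (12.2%) the 3 NKT arrays lay entirely above (7.19%) or entirely below (5.02%) the 3 CD4T arrays, and all 202 called probe sets were among them.

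**Figure D1:**
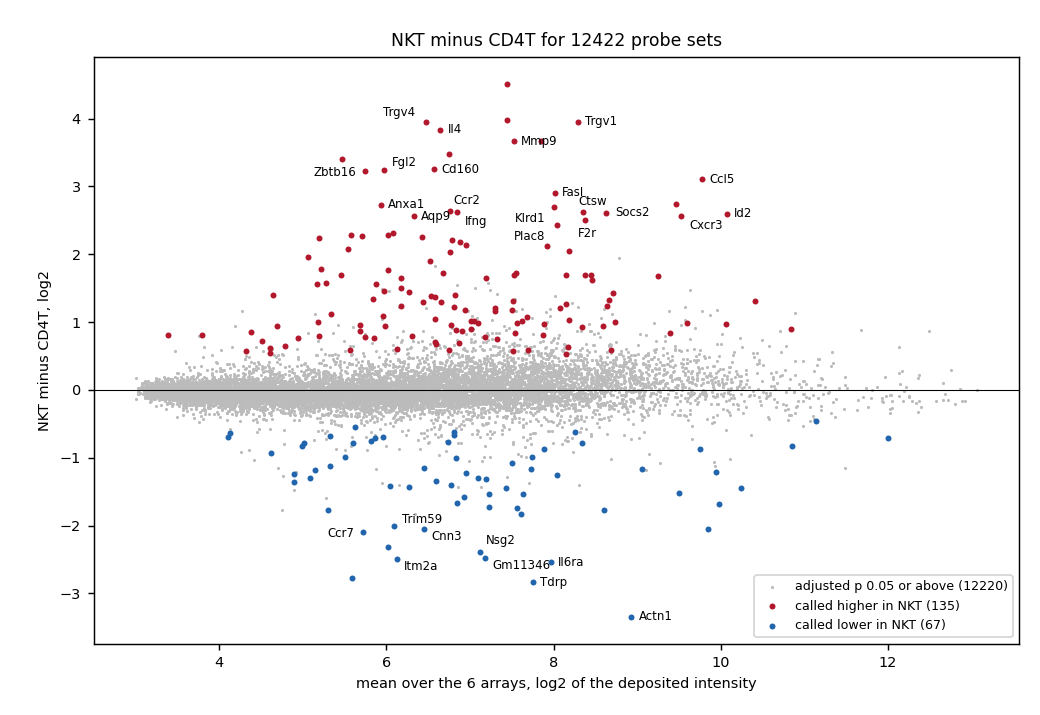
Difference between NKT and CD4T cells (log2, vertical axis) against the mean log2 intensity over the 6 arrays (horizontal axis) for 12422 probe sets, with the 135 called higher in red, the 67 called lower in blue and the genes of largest difference named. Called differences appear at dim and bright levels, but most lie at the brighter ones. With only the probe sets above the median level tested, 157 of these calls were kept. Points beyond 2 are more frequent above the zero line (39) than below it (12).

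In each group replicate 1 differed from the other replicates. The 5′ control for 18S ribosomal RNA read 1326 on CD4T replicate 1 and 675 on NKT replicate 1, against 52.7 to 59.2 on the other 4 arrays, and the SD of the log2 difference between 2 arrays of a group was 0.162 (CD4T) and 0.126 (NKT) for replicates 2 and 3, against 0.383 to 0.634 where replicate 1 was one of them. The β-actin control read 1075 at its 5′ end and 7549 at its 3′ end on CD4T replicate 1, and 1673 and 8932 on NKT replicate 1. On the other 4 arrays the 5′ end read 1505 to 1755 and the 3′ end 5547 to 6297. Same-numbered arrays of the groups deviated together, at correlations of 0.654 to 0.762, but replicates 2 and 3 did so crosswise as well (0.675 and 0.571), so the data set number 1 apart and do not tell number 2 from 3. A second fit took the replicate number as a block, which compares each NKT array with the CD4T array of its number. With the block 601 probe sets were called (4.84%), 387 higher (3.12%) and 214 lower (1.72%), and these held all 202 of the first fit. The 399 added by the block had a median difference of 0.644 in size, against 1.3 for the 202. The 5′ β-actin control was dimmest on CD4T replicate 1, an imbalance within number 1 that the block does not remove. Its part in the genes that were lowest on that array was not tested. Here "rose" and "fell" refer to the fit without the block, and a gene that passed only in the second fit is said to be called with the block alone. Without both replicates 1, 203 probe sets were called, 117 higher and 86 lower, of which 155 were among the 202.

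Several of the 20 largest increases in NKT cells were those of secreted proteins and death ligands. Mmp9, the gelatinase that cleaves basement membrane collagen, read 60.8, 52.7 and 42.9 on the CD4T arrays and 493, 733 and 775 on the NKT arrays, a 12.7-fold difference (3.66 ± 0.17, adjusted p = 1.5e-08). A second, dimmer Mmp9 probe set rose as well (1.40 ± 0.13). Ifng read 41.0, 45.6 and 53.3 on the CD4T arrays and 206, 328 and 344 on the NKT arrays. The death ligand gene Fasl read 117, 82.4 and 87.8 in CD4T and 963, 619.8 and 599 in NKT. The ranges of these genes were far apart, and no NKT array approached the brightest CD4T array. Ccl5, a chemokine stored by memory T cells, read 226, 333 and 351 on the CD4T arrays and 2876, 2406 and 2424 on the NKT arrays, with the NKT arrays close to each other. Fgl2, a fibrinogen-like protein that restrains immune responses, read 17.4, 21.1 and 23.1 on the CD4T arrays and 221, 182 and 181 on the NKT arrays (3.25 ± 0.20). Plac8, a small cysteine-rich protein, read 128, 103 and 110.4 on the CD4T arrays and 764, 542 and 549 on the NKT arrays (2.43 ± 0.17). No NKT array came near the CD4T range for either. The related chemokine gene Xcl1, made by activated T and NK cells, read 49.3, 46.6 and 43.4 on the CD4T arrays and 185, 95.4 and 71.9 on the NKT arrays and was called with the block alone (1.22 ± 0.33, adjusted p = 0.11 without and 0.0033 with it).

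Trgv1 and Trgv4, variable segments of the T cell receptor gamma chain, had the largest differences of any probe set with 1 gene symbol, 3.95 ± 0.15 and 3.95 ± 0.20. Trgv1 read 72.5, 79.8 and 87.5 on the CD4T arrays and 1352, 1207 and 1155 on the NKT arrays. Trgv4 read 21.0, 23.1 and 24.0 on the CD4T arrays and 355, 317 and 385 on the NKT arrays. Both were closely alike within each group. Gamma segments share sequence, so the assignment to a single segment is uncertain. None of the other 4 measured genes of the CD8 and gamma delta T cell list was called in either fit, and the list's summed intensity was 552.7 to 751.4 in CD4T and 1958 to 2270.0 in NKT cells. Cd8b1 read 174, 86.8 and 97.4 on the CD4T arrays and 91.8, 61.9 and 62.3 on the NKT arrays. Cd8a read 46.7, 60.3 and 60.02 on the CD4T arrays and 50.6, 52.3 and 51.3 on the NKT arrays. The gamma delta lineage factor Sox13 read 308, 214 and 201 on the CD4T arrays and 230.4, 202 and 216 on the NKT arrays. Blk, a kinase shared by B cells and some gamma delta T cells, read 129, 89.1 and 100.1 on the CD4T arrays and 190.2, 117 and 120.0 on the NKT arrays (0.40 ± 0.83), so that 3 of these 4 lay below 0 and 1 above it. The part of gamma delta T cells in these signals was not tested.

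**Figure D2:**
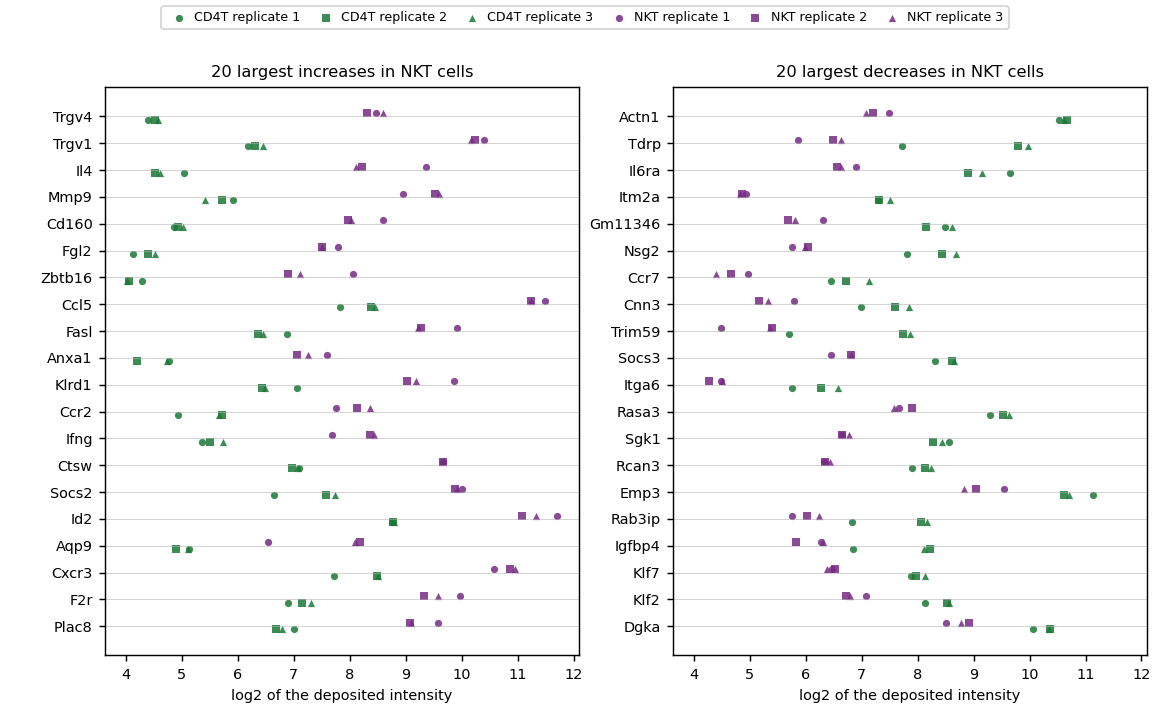
Log2 of the deposited intensity (horizontal axes) on each of the 6 arrays for the 20 genes with the largest called increase (left) and the 20 with the largest called decrease (right) in NKT cells; green marks CD4T, purple marks NKT, and the marker shape gives the replicate number. Only genes whose groups did not overlap were eligible. Replicate 1 lies away from replicates 2 and 3 for many genes, such as Tdrp, Trim59 and Igfbp4 in CD4T cells.

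Among the surface receptors, Cd160, an immunoglobulin-like receptor of cytotoxic and innate-like lymphocytes, read 29.1, 30.6 and 32.4 on the CD4T arrays and 388, 251 and 260.0 on the NKT arrays (3.26 ± 0.29). Of 23 measured costimulatory and inhibitory receptors it was the one that rose, and none fell. With the block the count was 4 higher, Cd160, Icos, Ly6e and Ly9, and 3 lower, Cd200, Cd5 and Ctla4. Icos, the inducible costimulator, read 38.0, 136 and 155 on the CD4T arrays and 111, 227 and 255 on the NKT arrays. Cd5, a receptor that dampens T cell receptor signals, read 832, 722 and 796 on the CD4T arrays and 453, 389.9 and 379 on the NKT arrays. Its groups did not overlap, and the fit without the block gave adjusted p = 0.51 with a pooled SE of 0.37, against SDs of 0.10 (CD4T) and 0.14 (NKT) in these groups. Cd200, the ligand of an inhibitory receptor on myeloid cells, read 26.9, 58.1 and 63.1 on the CD4T arrays and 17.8, 19.2 and 23.1 on the NKT arrays. Tnfrsf18, which encodes the costimulatory receptor GITR, rose from 268, 309 and 330.2 in CD4T to 622, 589 and 600.4 in NKT cells (1.00 ± 0.17, adjusted p = 0.0045), the member of 21 measured TNF superfamily genes that passed. The TNF receptors Tnfrsf1a (0.71) and Tnfrsf1b (0.84) were called with the block alone.

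Of 27 measured G protein-coupled receptors of leukocytes 4 rose and 2 fell. Over all 8251 named genes, each represented in the same way by its brightest probe set, 106 rose (1.28%) and 49 fell (0.594%), and with the block 304 were higher (3.68%) and 166 lower (2.01%); the counts of every list are to be read against these shares. The 4 were the chemokine receptors Ccr2, Cxcr3 and Ccr9, which guide effector cells to inflamed tissue and gut, and F2r, the thrombin receptor PAR1. Ccr2 read 30.8, 52.9 and 50.6 on the CD4T arrays and 216, 279.9 and 331 on the NKT arrays. Cxcr3 read 211, 358 and 364 on the CD4T arrays and 1529, 1856 and 1991 on the NKT arrays. F2r read 119, 142 and 159 on the CD4T arrays and 999, 640.2 and 764 on the NKT arrays (2.50 ± 0.27, adjusted p = 7.3e-05). Of its 3 probe sets 1 was called, and another lay at -0.18. Ccr9 read 22.3, 25.4 and 25.9 on the CD4T arrays and 67.5, 86.4 and 85.9 on the NKT arrays, and no gene of the 4 had overlapping groups. The receptors that fell were Ccr7 and S1pr1, the sphingosine 1-phosphate receptor through which lymphocytes leave lymphoid organs, at 49.9, 43.6 and 50.2 on the CD4T arrays and 19.0, 16.9 and 19.9 on the NKT arrays (-1.36 ± 0.13). The other S1pr1 probe set lay at -0.29. Among genes called with the block alone whose groups did not overlap, Ptger4, the prostaglandin E2 receptor EP4, had the largest difference. It read 88.4, 326 and 396 on the CD4T arrays and 619.7, 979 and 1061 on the NKT arrays (1.94 ± 0.53, adjusted p = 0.12 without the block and 0.0028 with it). CD4T replicate 1 was far below the other CD4T arrays. The cannabinoid receptor Cnr2 read 10.3, 10.4 and 10.4 on the CD4T arrays and 14.4, 16.2 and 24.5 on the NKT arrays and was called with the block alone.

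Downstream of these receptors, Pde7a, a phosphodiesterase that breaks down cAMP, rose from 43.5, 104 and 124 to 207, 273 and 309 (1.65 ± 0.31), a call lost without NKT replicate 2 or 3 (adjusted p up to 0.065). Rgs10, a regulator that shortens G protein signals, fell from 286, 189 and 184 to 106, 82.0 and 76.7 on its brightest probe set (-1.30 ± 0.18), and its other probe sets were at -1.44 and 0.01. These were the 2 of 25 measured G protein subunits, RGS proteins and their relatives that passed. With the block Rgs2 (0.94) and Rgs3 (0.51) were higher and the receptor kinase Grk6 (-0.71) lower. The adenylyl cyclase Adcy6, which makes cAMP, was on no list; it fell from 120.3, 169 and 178 to 57.0, 67.4 and 58.1 (-1.34 ± 0.21).

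In the JAK-STAT pathway 3 of 37 measured genes rose and 2 fell. The interleukin 6 receptor chain Il6ra read 809, 479 and 571 on the CD4T arrays and 119, 94.5 and 99.3 on the NKT arrays (-2.54 ± 0.36). Socs3, the feedback inhibitor that binds the shared signalling chain gp130, read 317, 393 and 402 on the CD4T arrays and 87.3, 113 and 112 on the NKT arrays (-1.83 ± 0.28). Il6st, which encodes gp130 itself, read 211, 391 and 453 on the CD4T arrays and 93.3, 155 and 149 on the NKT arrays (-1.37 ± 0.38, adjusted p = 0.13; 0.00021 with the block). These 3 were set side by side after their values had been seen. Each was lower on every NKT array than on any CD4T array, as were 5.02% of all probe sets. Among the genes that rose, Socs2, an inhibitor induced through STAT5, read 101, 192 and 212 on the CD4T arrays and 1024, 944 and 974 on the NKT arrays. Il12rb1, the chain shared by the receptors of interleukin 12 and interleukin 23, read 57.5, 57.7 and 63.8 on the CD4T arrays and 110.3, 180.1 and 185 on the NKT arrays. Cish, another STAT5 target, read 168, 135 and 149 on the CD4T arrays and 206, 232 and 235 on the NKT arrays. Both Il12rb1 probe sets were called (1.37 ± 0.18 and 1.46 ± 0.28). Cish passed narrowly (adjusted p = 0.04), and its adjusted p reached 0.249 with 1 array left out, NKT replicate 1, 2 or 3 or CD4T replicate 2 or 3. Jak2 (1.22 ± 0.30), Stat4, the transducer of interleukin 12 signals (1.06 ± 0.40), and the interleukin 10 receptor chain Il10rb (0.54 ± 0.19) were called with the block alone.

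Of 30 measured genes next to the T cell receptor Dok2, an adaptor that limits receptor signals, rose (158, 126 and 133 on the CD4T arrays and 268, 298 and 274 on the NKT arrays; 1.01 ± 0.16), and none fell. With the block 5 were higher and 2 lower, together 23.3% of the list, against 5.7% of all named genes. Zap70, the kinase recruited to the receptor, read 1389, 1388 and 1426 on the CD4T arrays and 1970.1, 2379.9 and 2242 on the NKT arrays (0.64 ± 0.20). The Tec-family kinase Txk read 361, 885 and 895 on the CD4T arrays and 1157, 1820.2 and 1567 on the NKT arrays, and CD4T replicate 1 was the lowest array. The phosphatase Ptpn22 read 256, 880.3 and 893 on the CD4T arrays and 903, 1623 and 1561 on the NKT arrays, again lowest on CD4T replicate 1. Cd247, the zeta chain of the receptor complex, read 178, 173 and 179.9 on the CD4T arrays and 112, 119.7 and 97.7 on the NKT arrays (-0.69 ± 0.28). A dimmer probe set of Txk rose without the block (0.69 ± 0.13, adjusted p = 0.0085). Among 22 MAP kinases and their phosphatases none was called. Dusp6, the phosphatase that inactivates ERK, read 23.3, 48.6 and 54.1 on the CD4T arrays and 62.8, 137 and 147 on the NKT arrays and passed with the block alone (1.46 ± 0.35, adjusted p = 0.056; 1.3e-05 with the block). On replicate 1 of both groups Dusp6 was less bright than on replicates 2 and 3.

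Further inside the cell, 2 of 32 measured genes of diacylglycerol, phosphoinositide and calcium signalling fell and none rose. Dgka, the kinase that removes diacylglycerol after receptor engagement and is abundant in resting T cells, read 1075, 1314 and 1302 on the CD4T arrays and 362, 485 and 439 on the NKT arrays (-1.53 ± 0.29). That call was lost without NKT replicate 1, CD4T replicate 2 or CD4T replicate 3 (adjusted p up to 0.057). Sgk1, a kinase activated by phosphoinositide 3-kinase, read 380.0, 311 and 346 on the CD4T arrays and 100.0, 101 and 109.7 on the NKT arrays (-1.74 ± 0.20). Rasa3, an inhibitor of Ras and Rap, fell from 631, 734 and 791 to 202, 239.8 and 192. Rcan3, a regulator of calcineurin, fell from 238, 281 and 300.5 to 80.0, 81.1 and 86.3, and both were found by the size of their difference and not through this list. With the block the list had 4 genes higher, the calcineurin chains Ppp3ca and Ppp3cc, the phosphatase Inpp5d and S100a10 (0.51 to 0.75). Lower with it were 3, Dgka, Sgk1 and Pdk1. The symbol Pdk1 stands for a kinase of pyruvate dehydrogenase, a gene of glucose metabolism, although it is counted in this list. Igf1r, the receptor of insulin-like growth factor 1, and Ddit4, an inhibitor of mTORC1, were on no list of this kind and were called with the block alone, at -1.05 ± 0.33 and -1.12 ± 0.27.

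Of 31 measured transcription factors of effector and memory T cells 6 rose, the marker Zbtb16 among them, against 1.28% of all named genes. With the block 10 were higher, against 3.68%, and none was called lower in either fit. The list as a whole lay on both sides, with 21 members above 0, 10 below and a median of 0.10. Id2, an inhibitor of E proteins needed by innate-like lymphocytes, read 433, 440.5 and 443 on the CD4T arrays and 3343, 2171 and 2572 on the NKT arrays (2.60 ± 0.36). Hopx, a homeodomain protein of effector memory cells, read 338, 327 and 355 on the CD4T arrays and 1201, 1019 and 1054 on the NKT arrays. Bhlhe40, a repressor that supports cytokine production, read 26.3, 49.6 and 46.4 on the CD4T arrays and 138, 204 and 234 on the NKT arrays. Rora, a nuclear receptor of innate lymphoid cells, read 37.8, 41.0 and 43.3 on the CD4T arrays and 83.6, 146 and 172 on the NKT arrays. Its other probe set lay at 0.13. Prdm1, which encodes Blimp-1, rose by 0.94 (adjusted p = 0.039), a call lost when any array but CD4T replicate 3 was left out (adjusted p up to 0.227). Gata3, the factor of interleukin 4 production, read 160.1, 322 and 337 on the CD4T arrays and 352, 476 and 628 on the NKT arrays and was called with the block alone (0.86 ± 0.31, adjusted p = 0.39; 0.0037 with it), as were Irf1, Irf8 and Mxd4. Outside the list Rbl2, the retinoblastoma relative p130, was higher with the block alone (1.83 ± 0.46). Without both replicates 1, 5 members of the list rose.

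Of 29 measured factors of naive and quiescent T cells 3 fell and none rose, against 0.594% and 1.28% of all named genes. With the block 9 were lower and 2 higher, against 2.01% and 3.68%. The median of the list was -0.15, against -0.02 over 8251 genes. Klf2, which drives expression of the egress receptor S1pr1, read 279.5, 369 and 376 on the CD4T arrays and 135, 106 and 111 on the NKT arrays (-1.54 ± 0.25). Its relative Klf7 read 236, 252 and 279.6 on the CD4T arrays and 88.8, 92.4 and 82.98 on the NKT arrays (-1.54 ± 0.28), and neither gene's groups overlapped. Lef1, a partner of β-catenin in naive T cells, fell on its brightest probe set (398, 368 and 368 on the CD4T arrays and 248.7, 238 and 253 on the NKT arrays; -0.62 ± 0.13). That call was lost when any 1 of the 6 arrays was left out. Its other probe set read 648, 166 and 183 on the CD4T arrays and 149, 101 and 91.1 on the NKT arrays and was called with the block alone. Myb, a factor of progenitors and long-lived T cells, read 142, 144 and 175 on the CD4T arrays and 29.3, 51.7 and 51.8 on the NKT arrays (-1.84 ± 0.50, adjusted p = 0.12; 0.00019 with the block). Id3, Foxp1 and Klf13 were lower with the block alone, from -0.79 to -0.48. The 2 higher members were Gfi1, a repressor that limits differentiation, and Foxo3, both called with the block alone. Gfi1 read 34.7, 118 and 121 on the CD4T arrays and 162, 249.6 and 279.7 on the NKT arrays. Foxo3 read 101, 144 and 147 on the CD4T arrays and 208, 255 and 270.2 on the NKT arrays. Without both replicates 1, 1 member of the list fell.

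Notch, Wnt and TGF-β signals act in T cell development and quiescence. Of 31 Notch and Wnt genes Lef1 and the corepressor Tle1 fell, Tle1 from 19.5, 23.1 and 23.4 to 13.5, 13.1 and 14.1 (-0.70 ± 0.13; lost without NKT replicate 2 or CD4T replicate 2). None of 26 TGF-β and activin genes was called. With the block 4 of them were lower and none higher, namely the signal transducer Smad4 (-0.65) and the inhibitors Smad7 (-0.65), Ski (-0.66) and Tgif1 (-0.73). Smad4 read 397, 563 and 556 on the CD4T arrays and 290.2, 317 and 350.5 on the NKT arrays, so that its groups did not overlap. Relb, a subunit of the alternative NF-κB pathway, rose from 157, 127 and 121 to 300.1, 246 and 258 (0.99 ± 0.19), the 1 call among 22 NF-κB genes in the fit without the block, lost without NKT or CD4T replicate 3, NKT replicate 1 or CD4T replicate 2 (adjusted p up to 0.078).

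The largest decrease in NKT cells was that of a gene of the actin cytoskeleton. Actn1, which cross-links actin filaments and anchors them to integrins, read 1469.8, 1622 and 1578 on the CD4T arrays and 179.8, 148 and 135 on the NKT arrays, a 10.2-fold difference (-3.35 ± 0.29, adjusted p = 1.3e-05). A second of its 3 probe sets fell as well (-2.78 ± 0.29), and the remaining one was at -0.08. Cnn3, an actin-binding calponin, read 127, 195 and 231 on the CD4T arrays and 55.5, 35.8 and 39.9 on the NKT arrays (-2.06 ± 0.30). These were the 2 of 41 scaffold genes that fell, and none rose. Pdlim1, a PDZ and LIM protein that binds α-actinin, was on no list and fell from 116, 209 and 229.9 to 71.5, 60.8 and 69.1 (-1.40 ± 0.25). The non-muscle myosin chain Myh9 read 822, 829.7 and 833 on the CD4T arrays and 239.7, 462 and 442 on the NKT arrays and was called lower with the block alone. Ahnak (0.87), Wipf1 (0.67), Vcl (0.61) and Lcp1 (0.43) were called higher with the block alone. The list's median was -0.03, with 19 members above 0 and 22 below.

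Integrin chains and their ligands divided. Of 18 measured 3 rose and 1 fell. Itga6, the laminin receptor chain of naive T cells, read 53.8, 77.1 and 95 on the CD4T arrays and 22.3, 19.3 and 22.7 on the NKT arrays (-1.78 ± 0.18). Icam1, the ligand of the integrin LFA-1, read 19.5, 34.7 and 40.9 on the CD4T arrays and 160.2, 149 and 143 on the NKT arrays (2.32 ± 0.23). Vcam1, the ligand of α4β1 integrin, read 42.5, 60.4 and 72.9 on the CD4T arrays and 135, 170.4 and 144 on the NKT arrays. Itgal, the α chain of LFA-1, rose by 0.71 (adjusted p = 0.04; lost without NKT replicate 2 or 3 or any CD4T array). Its β chain Itgb2 read 416, 771 and 815 on the CD4T arrays and 1222, 1511 and 1408 on the NKT arrays and was called with the block alone (1.10 ± 0.27, adjusted p = 0.062). Itga4, the α4 chain, read 50.5, 134 and 146 on the CD4T arrays and 40.3, 35.1 and 40.0 on the NKT arrays on its brightest probe set, which passed with the block alone (-1.38 ± 0.36). A dimmer one fell without the block (-0.64 ± 0.13, adjusted p = 0.015). Among 30 proteases and inhibitors Mmp9 and Adam19, a membrane metalloprotease, rose and none fell. Adam19 read 81.6, 110.3 and 120.4 on the CD4T arrays and 272, 380.0 and 378 on the NKT arrays (1.72 ± 0.18). Serpinb9, which protects cytotoxic cells from granzyme B, read 58.5, 112 and 128 on the CD4T arrays and 149, 214 and 236 on the NKT arrays and was called with the block alone.

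Genes of protein folding and export in the endoplasmic reticulum (ER) passed mostly with the block: 11 of 35 measured members were called higher with it and 1 without it. Of the 35 members 31 lay above 0, compared with 45.5% of all named genes, and the median was 0.32. The fit without the block called 1, Dnajb9, a co-chaperone of the ER, which read 39.2, 37.6 and 46.8 on the CD4T arrays and 90.6, 63.9 and 59.6 on the NKT arrays (0.77 ± 0.17, adjusted p = 0.039). That call was lost without NKT replicate 1 or 2 or CD4T replicate 1 or 2, and the other Dnajb9 probe set lay at -0.04. With the block none was called lower, and the 11 higher are 31.4% of the list, against 5.7% of 8251 genes called with the block in either direction. Hspa5, the chaperone BiP that is the abundant sensor of unfolded proteins, read 212, 601 and 690.2 on the CD4T arrays and 694, 1128 and 1269 on the NKT arrays (1.17 ± 0.40, adjusted p = 0.33; 0.0045 with the block). Xbp1, the transcription factor that enlarges the secretory apparatus, read 95.2, 124 and 136 on the CD4T arrays and 337, 255 and 303 on the NKT arrays (1.34 ± 0.37, adjusted p = 0.13; 0.00086 with the block). For both genes the NKT arrays all exceeded the CD4T arrays, and CD4T replicate 1 was the lowest array.

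The other members called with the block were Herpud1, an ER protein of misfolded protein disposal (0.80), the sensor Atf6 (0.75), the translocon chains Sec61b (0.70) and Sec61a1 (0.46), Creld2 (0.62), the stress-induced factor Ddit3 (0.61), the disulfide isomerase Pdia6 (0.48) and the translocon-associated chain Ssr2 (0.47). Pair by pair, Xbp1 was higher in NKT cells by 1.82, 1.04 and 1.16 at replicate numbers 1, 2 and 3, and Hspa5 by 1.71, 0.91 and 0.88. Both genes were higher at each number, and most so at number 1, which holds the CD4T array with the dimmest 5′ β-actin control. Among the other called members, number 1 gave the largest difference for Herpud1 (1.15), Dnajb9 (1.21), Sec61b (0.78) and Ssr2 (0.63), for example. It gave the smallest for Pdia6 (0.18), Ddit3 (0.37) and Atf6 (0.47). Members that were not called included the lectin chaperones Canx (299.8, 184 and 159 on the CD4T arrays and 187, 181 and 175 on the NKT arrays) and Calr (16.3, 15.5 and 13.9 in CD4T and 16.9, 15.5 and 17.4 in NKT), and the signal peptidase chain Sec11a, the lowest of the list at -0.30. Without both replicates 1, none of the list was called by limma in the fit without the block, in which 203 probe sets passed, and the list's median was 0.22. Plasma cells are rich in ER, and of 17 B cell and plasma cell markers Cd72 and Jchain were higher in NKT cells without the block and 4 with it. Jchain, which joins secreted antibodies, read 43.3, 44.8 and 44.6 on the CD4T arrays and 77.8, 83.1 and 66.5 on the NKT arrays (0.77 ± 0.13, adjusted p = 0.0059), and the part of such cells in the ER values was not tested.

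The unfolded-protein response acts on such genes through a promoter element, CCAAT followed by any 9 bases and CCACG, which binds NF-Y and ATF6, and the promoters are shown because several listed genes hold this run of letters. Searched on both strands from 250 bases before to 50 after the start site (RefSeq, GRCm38.p6), the element was found for 37 of 27025 genes with such a window (0.137%). Of 30 measured ER genes with a window 7 held it, namely Hspa5, Hsp90b1, Calr, Canx, Pdia6, Dnajc3 and Creld2. It was found in 3 of the 8 with a window among the 11 called in either fit, and in 4 of the 22 with a window among those not called. The list was chosen for a function known to use this element, so the matches describe the list. The 250 bases before the start are printed for the 3 called genes, 5′ to 3′ on the + strand of chr2:34771840-34772089 (Hspa5), chr12:17266339-17266588 (Pdia6) and chr15:88819396-88819645 (Creld2), with the element in capitals.
Hspa5: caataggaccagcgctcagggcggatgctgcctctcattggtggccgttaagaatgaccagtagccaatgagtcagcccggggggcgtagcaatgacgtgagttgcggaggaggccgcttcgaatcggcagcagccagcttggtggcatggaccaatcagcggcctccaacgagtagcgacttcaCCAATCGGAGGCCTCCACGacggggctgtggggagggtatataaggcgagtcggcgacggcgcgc
Pdia6: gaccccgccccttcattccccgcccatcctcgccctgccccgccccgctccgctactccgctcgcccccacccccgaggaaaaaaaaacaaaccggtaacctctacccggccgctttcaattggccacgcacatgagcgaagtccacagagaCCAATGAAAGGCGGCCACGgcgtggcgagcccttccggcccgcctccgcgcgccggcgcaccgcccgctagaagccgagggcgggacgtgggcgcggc
Creld2: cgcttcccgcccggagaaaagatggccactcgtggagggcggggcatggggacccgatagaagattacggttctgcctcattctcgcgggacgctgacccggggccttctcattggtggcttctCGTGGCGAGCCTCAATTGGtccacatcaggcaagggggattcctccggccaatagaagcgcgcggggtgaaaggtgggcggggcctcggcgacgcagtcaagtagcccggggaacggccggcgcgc
The capitals begin at -65 in Hspa5, -98 in Pdia6 and -126 in Creld2, counted from the start site. In Creld2 the element lies on the opposite strand, so its capitals read as the reverse complement and -126 is its CCACG end. Beside these sequences stand the values: Hspa5 differed by 1.17 ± 0.40, Pdia6 by 0.48 ± 0.42 and Creld2 by 0.62 ± 0.21. Pdia6 read 65.8, 133 and 138 on the CD4T arrays and 74.4, 208 and 210.4 on the NKT arrays, with both replicates 1 the lowest of their group and the groups overlapping. Creld2 read 64.9, 86.4 and 93.6 on the CD4T arrays and 101, 129.8 and 145 on the NKT arrays. Hsp90b1, which holds the element more than once, read 209, 308 and 347 on the CD4T arrays and 394, 493 and 452 on the NKT arrays (0.66 ± 0.32) without being called in either fit.

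**Figure D3:**
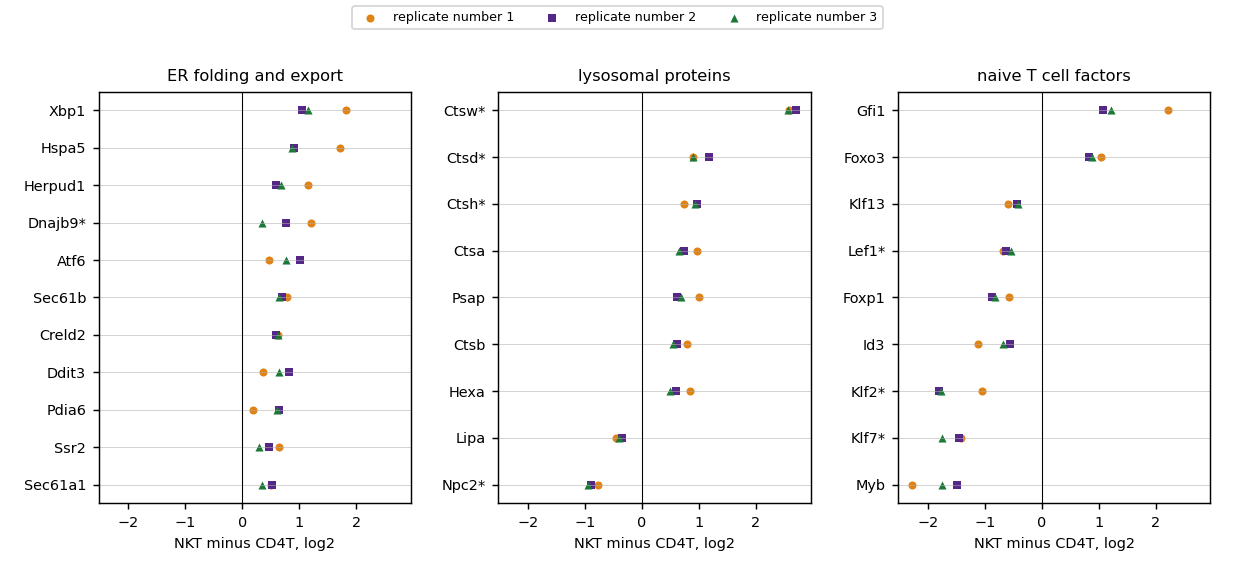
NKT minus CD4T (log2, horizontal axes) at each replicate number for the members called in either fit of 3 gene lists: ER folding and export, lysosomal proteins, and factors of naive T cells (2 of whose 11 are not drawn). An asterisk marks genes called without the block. The 3 numbers fall on 1 side of the zero line for every gene drawn, which the choice of genes by the block fit favours. Circles (number 1) lie farthest from that line for some genes, such as Xbp1, Hspa5, Herpud1, Dnajb9 and Gfi1. They lie nearest to it for others, such as Pdia6, Ddit3 and Atf6.

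Genes of lysosomal proteins were called in both directions. Of 30 measured 3 rose and 1 fell, and with the block 7 were higher and 2 lower. Ctsw, a cathepsin of cytotoxic lymphocytes, read 136, 125 and 135 on the CD4T arrays and 818, 819 and 802 on the NKT arrays (2.62 ± 0.25). Ctsd, an aspartic protease, read 531, 525 and 597 on the CD4T arrays and 983, 1178 and 1115 on the NKT arrays (0.99 ± 0.20). Ctsh, a cysteine protease, read 89.8, 83.5 and 91.2 on the CD4T arrays and 149, 163 and 173 on the NKT arrays (0.87 ± 0.17). The calls of both were lost without NKT replicate 2, NKT replicate 3 or CD4T replicate 2, and that of Ctsd without CD4T replicate 1 as well (adjusted p up to 0.106 and 0.084). Ctsa, Ctsb, Hexa and Psap, the precursor of the saposins that load lipids onto CD1d, were called higher with the block alone, from 0.64 to 0.79. Psap read 529.8, 1219 and 1192 on the CD4T arrays and 1062, 1874 and 1918 on the NKT arrays. Npc2, which carries cholesterol out of the lysosome and can exchange lipids on CD1d, fell: it read 1142, 1180.3 and 1186 on the CD4T arrays and 672, 633 and 615 on the NKT arrays (-0.87 ± 0.15, adjusted p = 0.0066). The acid lipase Lipa was lower with the block alone (-0.40). Of 21 granule docking and membrane fusion genes none was called, 18 lay above 0, and with the block Vamp8, a vesicle SNARE of granule release, was higher (0.59).

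Metabolic genes were called one at a time. Slc2a3, a glucose transporter of activated lymphocytes, read 66.3, 87.2 and 84.1 on the CD4T arrays and 103, 191 and 182 on the NKT arrays (0.96 ± 0.23, adjusted p = 0.0495). It was the 1 of 20 genes of glycolysis and lactate handling that passed, and its call was lost without NKT replicate 2 or 3 or any CD4T array. The other Slc2a3 probe set lay at 0.11. Pdk1 was lower with the block alone (553, 1110.2 and 1186 on the CD4T arrays and 326, 479 and 495 on the NKT arrays). In cholesterol handling the efflux pump Abca1 rose (65.8, 61.2 and 83.3 on the CD4T arrays and 288, 125 and 169 on the NKT arrays; 1.39 ± 0.30). Its other probe set lay at -0.07. The synthesis enzyme Sqle fell (118, 146 and 158 on the CD4T arrays and 74.3, 81.4 and 91.2 on the NKT arrays; -0.77 ± 0.18). With the block Apoe, the lipid carrier that accepts cholesterol from Abca1, was higher (115, 82.4 and 78.6 on the CD4T arrays and 337, 227 and 208 on the NKT arrays). The synthesis enzyme Cyp51 was lower with the block (41.6, 71.2 and 87.2 on the CD4T arrays and 26.3, 43.6 and 40.6 on the NKT arrays), so that the list of 20 gave 2 higher and 2 lower. The Abca1 and Sqle calls were each lost when any 1 of 5 arrays was left out, for Abca1 all but NKT replicate 2 and for Sqle all but CD4T replicate 1. Apoe and Abca1 are also expressed by macrophages, whose markers are given further on. Cyba, a subunit of the phagocyte oxidase, rose (1554, 1183 and 1317 on the CD4T arrays and 2768, 2318 and 2416 on the NKT arrays; 0.89 ± 0.19). It was the 1 of 31 redox genes that passed, and it too lost its call without 1 of 5 arrays, all but CD4T replicate 1.

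Membrane and glycan genes added further single calls. Aqp9, a channel for water and glycerol that memory T cells use, read 35.0, 29.7 and 34.6 on the CD4T arrays and 93.3, 292 and 272 on the NKT arrays (2.56 ± 0.31), with NKT replicate 1 well below the other NKT arrays. The calcium-activated potassium channel Kcnn4 fell from 250.1, 292 and 316 to 105, 109 and 101 (-1.44 ± 0.26). Slc25a4, the mitochondrial ADP/ATP carrier, fell from 379, 424 and 422 to 252, 131 and 149.6 (-1.26 ± 0.25; lost without NKT or CD4T replicate 2 or 3). Atp1b3, a subunit of the sodium pump, read 2356, 5738 and 5677 on the CD4T arrays and 1164, 2436 and 2486 on the NKT arrays and was called lower with the block alone (-1.15 ± 0.45). Of 33 galectin, glycosyltransferase and sulfotransferase genes St3gal6, which adds the sialic acid of selectin ligands, rose (40.9, 66.4 and 75.5 on the CD4T arrays and 189.9, 307 and 298 on the NKT arrays; 2.13 ± 0.30). St6gal1, which caps N-glycans with α2,6-linked sialic acid, read 82.7, 346 and 425 on the CD4T arrays and 55.6, 107 and 104 on the NKT arrays and was lower with the block alone, as was St3gal1 (-0.49). Entpd1, the ectoenzyme CD39 that breaks down extracellular ATP, rose from 21.4, 20.9 and 25.2 to 52.2, 74.6 and 77.3 (1.58 ± 0.16). Anxa1, a phospholipid-binding protein that limits inflammation and the 1 of 30 genes of fatty acid metabolism and lipid mediators that passed, rose on 2 of its 3 probe sets, the brightest reading 27.2, 18.5 and 26.8 on the CD4T arrays and 194, 133 and 153 on the NKT arrays. Sema4f fell (-1.17 ± 0.21; lost without CD4T replicate 2 or 3), and Sema4a (0.97) and the semaphorin coreceptor Nrp1 (-0.84) were called with the block alone.

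Nedd4, a ubiquitin ligase that acts on membrane receptors and on T cell activation, rose on both of its probe sets, the brighter reading 22.2, 22.4 and 20.6 on the CD4T arrays and 76.8, 128 and 119.7 on the NKT arrays (2.28 ± 0.24, adjusted p = 6.7e-05). Trim59, another ubiquitin ligase, read 51.8, 213 and 234 on the CD4T arrays and 22.5, 42.4 and 41.2 on the NKT arrays (-2.01 ± 0.46, adjusted p = 0.04). That call was lost without any 1 array other than CD4T replicate 1. CD4T replicate 1 was dim for this gene and close to the NKT arrays. Of 25 ubiquitin ligases and deubiquitinases these were the 2 that passed.

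Several of the lists gave no call in the fit without the block: granule docking, MAP kinases, TGF-β signalling, MHC class I and peptide loading (17 measured), proteasome subunits (29), the mitochondrial respiratory chain (31), cytosolic ribosomal proteins (21), cell division (40), apoptosis regulators (24) and heat shock proteins (27). A list of this size that gives no call is near the share over all named genes (1.88%), so these counts set no list apart, and 772 of all 12422 probe sets had an unadjusted p under 0.05 with limma. With the block the proteasome list gave 1 call and the ribosomal, respiratory chain and apoptosis lists still gave 0. The sign of small differences was uneven in some: 20 of 21 ribosomal protein genes lay below 0, with a median of -0.16 and none below -0.34, and 24 of 31 respiratory chain genes and 23 of 29 proteasome genes lay above it, with medians of 0.18 and 0.11. The genes of such a list are not independent of each other, so a run of small differences of 1 sign is given as a description. In the cell division list the D-type cyclins Ccnd2 (0.73) and Ccnd3 (0.72) and Hmgb2 were higher with the block and Stmn1 (-0.98) and Cdkn2d lower.

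**Figure D4:**
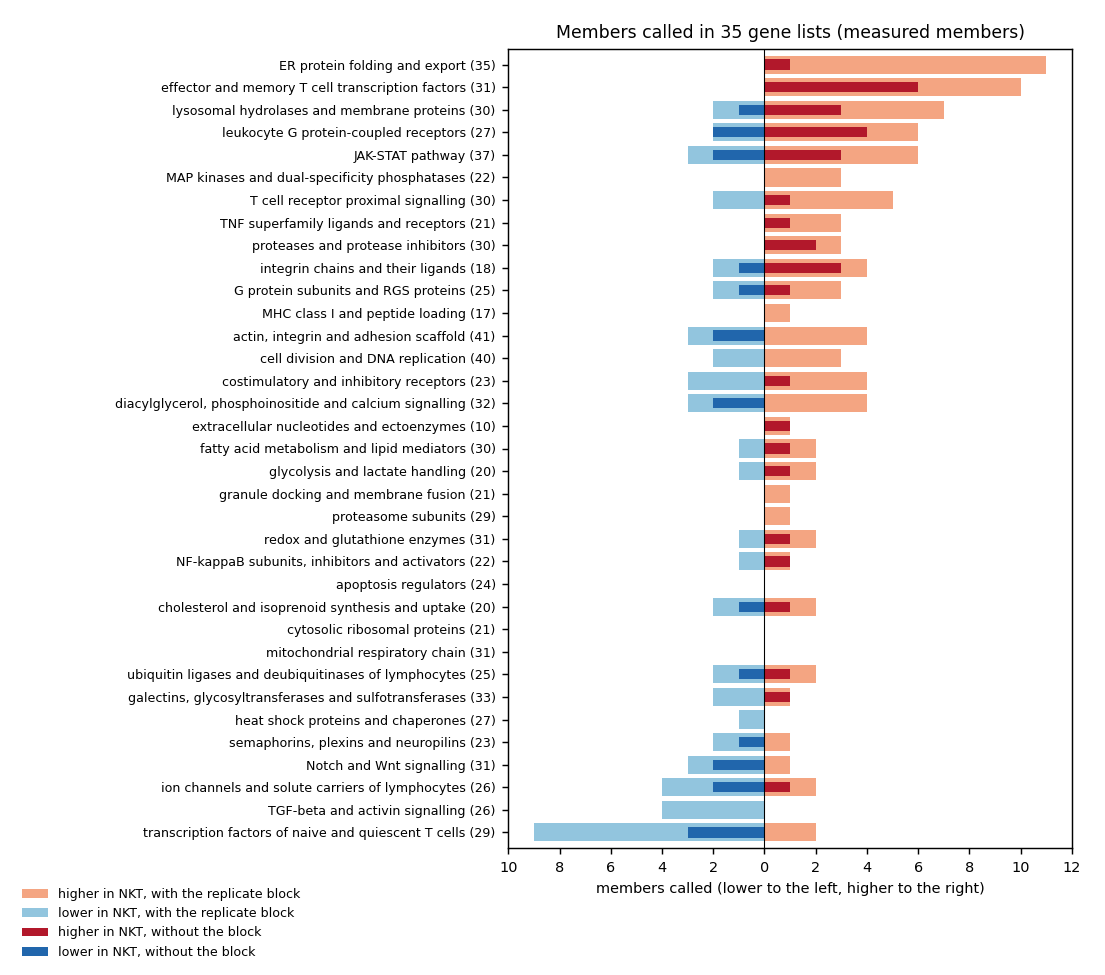
Members called higher (right of zero) and lower (left of zero) in NKT cells for 35 gene lists, with the number of measured members in parentheses; dark bars give the fit without the block and pale bars the fit with it, and lists are ordered by higher minus lower calls with the block. ER folding and export (1 higher, 11 with the block) has the longest pale bar, effector and memory transcription factors (6 higher) the longest dark one, and factors of naive T cells (3 lower, 9 with the block) reach farthest to the left.

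Of the 166 genes called without the block 91 were on none of the lists, 15 of them among the 40 genes of largest difference. Of the rest, the 12 largest each way were read after their values had been seen. Cd93, a C-type lectin-like receptor, read 32.9, 27.5 and 28.1 on the CD4T arrays and 88.02, 164 and 206 on the NKT arrays (2.29 ± 0.37). Abcb1a, the drug efflux pump, read 31.6, 72.9 and 77.9 on the CD4T arrays and 89.1, 250.03 and 289.7 on the NKT arrays (1.72 ± 0.39). Ckb, the brain-type creatine kinase, was tight within each group, at 182, 204 and 198 on the CD4T arrays and 587, 668 and 636 on the NKT arrays (1.69 ± 0.16). Cd82, a tetraspanin, read 146, 194 and 224 on the CD4T arrays and 499.8, 672 and 636 on the NKT arrays on the called probe set of its 3. Antxr2, an anthrax toxin receptor that binds collagen, read 64.3, 131 and 127 on the CD4T arrays and 219, 401 and 409 on the NKT arrays. Non-overlapping groups were a condition for the choice of all these genes. The others that rose were D17H6S56E-5, Slc25a53, Ctla2b, Pcgf2, AW112010, Pelo and Dock5, from 1.45 to 2.21. Calls of Abcb1a and D17H6S56E-5 were lost without NKT replicate 2, NKT replicate 3, CD4T replicate 1 or CD4T replicate 2.

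On the lower side Smc4, a condensin subunit, read 1439, 2266 and 2445 on the CD4T arrays and 853, 596 and 777 on the NKT arrays (-1.44 ± 0.24). Adk, the kinase that clears adenosine, read 86.3, 149.5 and 157 on the CD4T arrays and 45.9, 51.1 and 43.5 on the NKT arrays (-1.44 ± 0.26). Rflnb, a filamin-binding regulator, read 1419.7, 1529.5 and 1535 on the CD4T arrays and 629, 682 and 622 on the NKT arrays. Abcg2, an efflux pump, read 37.1, 44.1 and 59.0 on the CD4T arrays and 18.8, 19.4 and 20.02 on the NKT arrays. Ndrg1, a gene of differentiation and anergy, fell on both of its probe sets, -1.15 ± 0.17 and -1.01 ± 0.16. Cd9, Crip1, Mettl8, Ppic, Pdlim1, Adcy6 and Tmem71 made up the rest, from -1.40 for Pdlim1 to -1.09 for Mettl8. The call of Crip1 was lost when any 1 of the 6 arrays was left out, that of Tmem71 without NKT or CD4T replicate 2 or 3, that of Pdlim1 without NKT or CD4T replicate 2 and that of Mettl8 without NKT replicate 2.

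Other large decreases were those of genes with no list of their own. Itm2a, a membrane protein of thymocytes and T cells, read 157, 159 and 182 on the CD4T arrays and 30.7, 29.1 and 28.2 on the NKT arrays (-2.50 ± 0.36). Tdrp read 211, 892 and 1010.2 on the CD4T arrays and 58.1, 90.3 and 98.9 on the NKT arrays (-2.84 ± 0.48). Nsg2, an endosomal protein best known from neurons, read 225, 346 and 414 on the CD4T arrays and 54.3, 66.0 and 63.2 on the NKT arrays (-2.38 ± 0.22). These groups were far apart, although CD4T replicate 1 was well below the other CD4T arrays for Tdrp. Igfbp4, which binds insulin-like growth factors, fell by 1.59, a call lost without CD4T replicate 2 or 3 or NKT replicate 2 (adjusted p up to 0.064), and Gm11346, Emp3 and Rab3ip differed by -2.48 ± 0.34, -1.68 ± 0.24 and -1.67 ± 0.28. Where a gene had several probe sets, they often did not give the same call. Of 56 genes with more than 1 probe set and at least 1 called, all probe sets were called for 6, all had the same sign for 38, and none was called in both directions. The brightest probe set was the called one, or among those called, for 45. Genes whose other probe set lay near 0 included Fgl2, Tdrp, Pcgf2, Vcam1 and Mpeg1.

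Other large decreases were those of genes with no list of their own. Itm2a, a membrane protein of thymocytes and T cells, read 157, 159 and 182 on the CD4T arrays and 30.7, 29.1 and 28.2 on the NKT arrays (-2.50 ± 0.36). Tdrp read 211, 892 and 1010.2 on the CD4T arrays and 58.1, 90.3 and 98.9 on the NKT arrays (-2.84 ± 0.48). Nsg2, an endosomal protein best known from neurons, read 225, 346 and 414 on the CD4T arrays and 54.3, 66.0 and 63.2 on the NKT arrays (-2.38 ± 0.22). These groups were far apart, although CD4T replicate 1 was well below the other CD4T arrays for Tdrp. Igfbp4, which binds insulin-like growth factors, fell by 1.59, a call lost without CD4T replicate 2 or 3 or NKT replicate 2 (adjusted p up to 0.064), and Gm11346, Emp3 and Rab3ip differed by -2.48 ± 0.34, -1.68 ± 0.24 and -1.67 ± 0.28. Where a gene had several probe sets, they often did not give the same call. Of 56 genes with more than 1 probe set and at least 1 called, all probe sets were called for 6, all had the same sign for 38, and none was called in both directions. The brightest probe set was the called one, or among those called, for 45. Genes whose other probe set lay near 0 included Fgl2, Tdrp, Pcgf2, Vcam1 and Mpeg1.

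Markers of other cells of the spleen were read in full, since a sorted population may hold some of them. Of 22 macrophage and monocyte markers 4 were higher in NKT cells, with summed intensities of 855 to 1137 in CD4T and 1236 to 1418 in NKT cells. Lyz2, which encodes lysozyme, read 29.8, 20.6 and 18.7 on the CD4T arrays and 136, 83.01 and 77.4 on the NKT arrays, with 1 of its 2 probe sets called. Mpeg1 read 121, 75.7 and 81.2 on the CD4T arrays and 197, 157 and 199 on the NKT arrays. Csf1r, the receptor of macrophage growth factor, read 62.7, 58.0 and 49.7 on the CD4T arrays and 90.4, 85.8 and 81.0 on the NKT arrays, and Vcam1 was the remaining one. Defining markers of the lineage such as Adgre1, which encodes F4/80 (38.3, 26.4 and 28.8 on the CD4T arrays and 34.5, 34.9 and 39.2 on the NKT arrays), Itgam, Fcgr1 and Marco read under 40 on all 6 arrays and were not called, and Cd68 lay at 0.15. The call of Mpeg1 was lost without NKT replicate 3 or CD4T replicate 2, that of Vcam1 without NKT replicate 2 and that of Csf1r without any 1 array but CD4T replicate 1. Of 11 genes of MHC class II presentation 3 were higher (H2-Aa 1.42, H2-Eb1 1.32 and H2-Ab1 1.17), with sums of 1124 to 2098 in CD4T and 2015 to 3418 in NKT cells. H2-Aa read 400.4, 203 and 204 on the CD4T arrays and 1076, 529 and 562 on the NKT arrays, bright on replicate 1 in both groups. All 3 calls were lost without CD4T replicate 2, that of H2-Aa was also lost without NKT replicate 1 or CD4T replicate 3, and that of H2-Ab1 without any 1 array but CD4T replicate 1.

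Of 17 B cell and plasma cell markers 13 lay above 0, 2 were higher without the block and 4 with it, with sums of 2275 to 3045 in CD4T and 2825 to 4032 in NKT cells. Cd72, an inhibitory receptor of B cells, read 23.1, 59.6 and 77.2 on the CD4T arrays and 116, 213 and 223 on the NKT arrays, and Jchain was given with the ER genes. The call of Cd72 was lost without NKT replicate 2 or 3. The defining B cell gene Cd79a overlapped between the groups (154, 129 and 115 on the CD4T arrays and 130.1, 124 and 122 on the NKT arrays), as did Pax5 (182, 112 and 99.7 in CD4T and 159, 104 and 102 in NKT). Blnk, an adaptor of the B cell receptor, was called with the block alone (0.47 ± 0.30). Ms4a1, which encodes CD20, read 419, 197 and 216 on the CD4T arrays and 795, 272 and 299.7 on the NKT arrays and was called with the block alone. Of 12 dendritic cell markers Ccr9 was called, and Irf8 and Tcf4 with the block alone (sums 1105 to 1470.0 in CD4T and 1335 to 1608 in NKT cells). None of 20 granulocyte and mast cell markers (sums 719.8 to 975 in CD4T and 756 to 832 in NKT cells) and none of 11 erythroid and platelet markers (sums 708 to 917 in CD4T and 689.9 to 834 in NKT cells) was called in either fit. Of 10 regulatory T cell genes Tnfrsf18 and Entpd1 rose, Ctla4 and Nrp1 were lower with the block alone, and sums were 945 to 1191 in CD4T and 1194 to 1237 in NKT cells. Ikzf2, the factor Helios of that lineage, read 27.1, 26.8 and 24.2 on the CD4T arrays and 24.9, 24.3 and 25.5 on the NKT arrays. Of 17 genes of NK cells and innate lymphocytes 5 rose (Klrd1, Klra3, Klrk1, Tyrobp and Prf1; Klra3 has near-identical relatives that its probe set may read) and the sums were 621 to 799.8 in CD4T and 1548 to 2102 in NKT cells. With the block 8 were higher, 47.1% of the list, 13 lay above 0 and the median was 0.50. On their brightest probe sets the receptor genes Klra7 (0.57 ± 0.13; another probe set rose without the block) and Klrc1 (0.60 ± 0.16) and the granzyme gene Gzma (0.83 ± 0.21) were those called with the block alone. Ncr1, which marks NK cells, read 12.5, 12.4 and 11.96 on the CD4T arrays and 13.02, 12.5 and 12.5 on the NKT arrays, and Eomes, a factor of NK and CD8 T cells, 23.03, 21.7 and 23.4 in CD4T and 22.97, 19.3 and 19.9 in NKT. The call of Prf1, the pore protein perforin, was lost without any 1 of the 6 arrays and that of Tyrobp, an adaptor of NK receptors, without any 1 but CD4T replicate 1. Of 11 genes of thymocytes and recent emigrants Dntt fell (-0.71 ± 0.17), a call lost when any 1 of the 6 arrays was left out, with sums of 1912 to 2480.0 in CD4T and 2082 to 2307 in NKT cells. The part of NK cells, macrophages, B cells, plasma cells and dendritic cells in the called genes they share with T cells, such as Lyz2, Vcam1, Apoe and the class II genes, was not tested.

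The same differences were read in another pair of the series that shares no array with this one, T cells selected by a higher and a lower dose of agonist. CD8αα T cells (CD8aaT, TCRβ+CD8α+CD8β-, n = 3) and CD8αβ T cells (CD8abT, TCRβ+CD8α+CD8β+, n = 3) came from RTOC, an abbreviation the labels do not spell out, where they were selected by a high or a low dose of the agonist Smcy, respectively. About 50000 cells were sorted per sample, and the label of these samples names no strain. The difference NKT minus CD4T was tested against the difference CD8aaT minus CD8abT, and 86 probe sets were called (0.692%), 50 with the higher value in the NKT pair (0.403%) and 36 with the lower (0.29%). Of the 202 probe sets called in NKT cells 70 were among them and 132 were not. Of the 20 largest increases 15 passed, and of the 20 largest decreases 6. With the block it was 17 of each. These sets were chosen by the NKT minus CD4T difference, which the tested contrast contains. Their shares are therefore not comparable with the 0.692% of all probe sets.

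Genes far apart between the pairs included Il4 (NKT pair minus CD8aaT pair 3.80 ± 0.37), Mmp9 (3.69 ± 0.24), Anxa1 (2.84 ± 0.34) and Aqp9 (2.70 ± 0.43), for which the CD8aaT pair lay between -0.14 and 0.04. On the lower side were Actn1 (-3.02 ± 0.41), Itm2a (-2.96 ± 0.50) and Nsg2 (-2.51 ± 0.31). Cd9, a tetraspanin, fell in NKT cells and was 1.71 higher in CD8aaT cells, a case of opposite signs (-2.95 ± 0.30, adjusted p = 0.00015), and Itga4 likewise lay at -1.38 and 1.18. Genes with close values in both pairs were Ccl5 (3.10 and 2.84), Klrd1 (2.69 and 2.20), Id2 (2.60 and 1.97) and Socs3 (-1.83 and -1.77), with no difference between pairs called. Xbp1 was 0.46 and Hspa5 0.90 higher in CD8aaT cells, and the difference between pairs was 0.88 ± 0.53 and 0.26 ± 0.56, not called. A difference between pairs has to be large to be seen, so the 132 that did not pass are not shown to be alike.

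**Figure D5:**
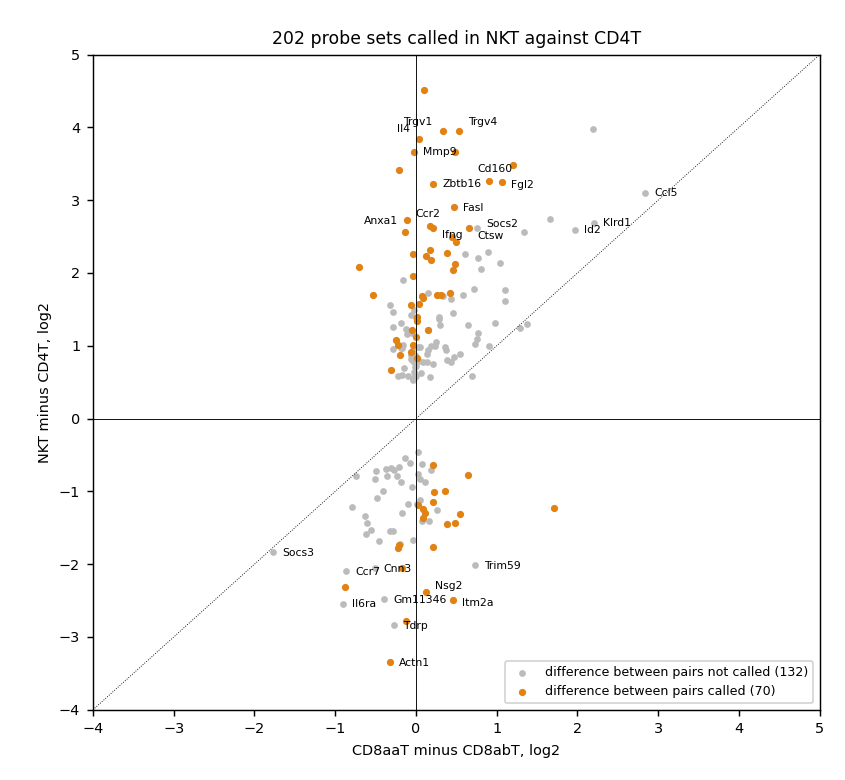
NKT minus CD4T (log2, vertical axis) against CD8aaT minus CD8abT (log2, horizontal axis) for the 202 probe sets called in the NKT comparison, with the 70 whose difference between pairs was called in orange and the 132 others in grey; the dotted line marks equal differences. Ccl5, Klrd1, Id2 and Socs3 lie near the dotted line, and Il4 and Mmp9 lie at 0.04 and -0.03 on the horizontal axis.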

How the data were processed

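RNA of sorted cells was amplified, labelled and hybridised to Affymetrix mouse arrays, and each array has 12488 probe sets. The deposited values are intensities on a linear scale, made by the authors with RMA per the submitters' processing notes; the RMA version and the set of arrays it was run on are not stated there. RMA forces the arrays onto 1 distribution (medians 49.6 to 54.1), so a shift shared by most genes cannot be seen. Scanner files were not used here. The deposited intensities were taken to log2, 66 control probe sets were left out, and limma 3.58.1 (R 4.3.3) was fitted over all 16 arrays with 6 group means and tested two-sided, with Benjamini-Hochberg adjustment over 12422 probe sets. Standard errors pool the spread over all groups (10 residual degrees of freedom), so groups outside the comparison enter them. A further fit had the replicate number as a block within each pair of groups. The pairing follows the replicate numbers of the sample titles. Deviations of same-numbered NKT and CD4T arrays from their group means correlated at 0.762, 0.654 and 0.669. Those of unlike-numbered arrays were 0.675 and 0.571 between numbers 2 and 3 and from -0.743 to -0.646 where number 1 was set against another, so the block mainly sets number 1 apart; the labels do not say that a number marks a shared sort or day.

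Symbols came from GEO's platform annotation: 10833 probe sets had 1 symbol, 396 several and 1193 none, and 10817 were matched to RefSeq. In the gene lists a gene is its brightest probe set over the 6 arrays. By rule, genes were named by size where their NKT and CD4T arrays did not overlap. These were the 20 largest called differences each way and the 12 largest each way called with the block alone. Also named were list members called in either fit, genes of the gates and the 4 markers. The comparison, the lists and the rules were chosen with earlier results of these data known. The fit was tested on simulated data with noise of the same size on every array. That setting lacks the deviation of replicate 1 seen here and does not bear on it. Alternatives were other normalizations, filters, fits and left-out arrays. Some called genes are not reported here.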

Additional observations from a re-analysis of the deposited data

Results flagged for a closer look

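Of 230 genes named by rule or called on a list, 46 had a difference between NKT and CD4T cells that itself differed from the one between CD8aaT and CD8abT cells (limma, adjusted p up to 0.049), 28 with the higher value in the NKT pair and 18 with the lower. All 46 also passed with the replicate block. The 230 include the genes on no list that were chosen after their values had been seen. All were chosen by their NKT minus CD4T difference, which the tested contrast contains, so that choice can raise the share that passed. The values that follow are the NKT pair's log2 difference minus that of the CD8aaT pair.

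Among secreted proteins and ligands the values were higher for Il4 (3.80), Mmp9 (3.69), Ifng (2.42), Fasl (2.44) and Fgl2 (2.18), and for the lysosomal enzymes Lyz2 (2.79) and Ctsw (1.97). Among receptors and surface proteins they were higher for Trgv1 (3.62), Trgv4 (3.42), Cd160 (2.36), Klra3 (2.12), Klrk1 (2.00), Ccr2 (2.46), Ccr9 (2.23), F2r (2.06), Icam1 (2.14), Adam19 (1.30), Entpd1 (1.54), Cd82 (1.38) and Aqp9 (2.70). Transcription factors and signalling or other cytoplasmic proteins with higher values were Zbtb16 (3.02), Hopx (1.60), Rora (1.56), Nedd4 (1.89), Dok2 (1.05), Anxa1 (2.84), Plac8 (1.93) and Ckb (1.43).

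Lower in the NKT pair were the adhesion and cytoskeletal genes Actn1 (-3.02), Itga4 (-2.55) and Itga6 (-1.56), the membrane proteins Itm2a (-2.96), Cd9 (-2.95), Nsg2 (-2.51), S1pr1 (-1.46), Abcg2 (-1.33) and Tmem71 (-1.85) and the signalling genes Rasa3 (-1.98), Sgk1 (-1.53), Ddit4 (-1.84), Traf5 (-1.01) and Ndrg1 (-1.36). The remaining 4 were the enzymes Adk (-1.92), Sqle (-1.41) and Ppic (-1.22), and the condensin gene Smc4 (-1.83).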

How the results depend on the processing

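With the replicate block 601 probe sets were called in place of 202, 387 higher in place of 135 and 214 lower in place of 67; with the block and the 6 arrays alone, 523, 360 and 163. With the block and without replicate number 1, 2 or 3 of both groups, 557, 280 and 333 were called. Leaving out 1 array gave 134 (without NKT replicate 2) to 242 (without CD4T replicate 1) called, 90 to 128 higher and 43 to 114 lower. Called with a difference over 1 in size were 134, of which 44 lower. Array weights gave 4034, 1871 and 2163, with weights from 0.127 to 68.4 for the CD4T arrays: the weights did not converge, and these counts support nothing. The 6 arrays alone without the block called 150 (122 of the 202), values with 32 added 218, quantile normalization 202 (173 of the 202), a filter on low values 164, an intensity trend 193, and both replicates 1 left out 203 (155 of the 202).

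The difference between the NKT and CD8aaT pairs called 86, and 375 with the block, 1121 with array weights, 132 without both replicates 1, and 45 (without NKT replicate 3) to 166 (without CD4T replicate 1) leaving out 1 array; it could not be fitted with the 6 arrays alone. Except where fewer arrays show the cause, the cause was not tested. No called gene changed sign under any alternative; Cd3e, Cd3g and the uncalled Zbtb16 probe set, all near 0, ranged from -0.12 to 0.04, -0.22 to 0.50 and -0.14 to 0.14. Of the 40 genes of largest difference 34 kept their call in every alternative that tested them (the filter on low values left some out, such as Itga6) and 37 whenever 1 array was left out, the others being Trim59, Dgka and Igfbp4. Of 111 called genes followed, 64 never lost their call, and 244 of 1875 results of a called gene under an alternative were lost.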
